A study of Homo sapiens with 29 samples.

Results

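The genes described here are 34 human genes of cholesterol and fatty acid synthesis, taken as a named list from the 35579 genes to which the deposited transcript values could be assigned. By role, 5 regulate the pathway, 4 take up or move sterols, 7 belong to the mevalonate steps, 11 to the later sterol steps and 7 to fatty acid synthesis. They were measured by RNA sequencing in 29 libraries of PC9 cells, an EGFR-mutant lung adenocarcinoma line, with 1 library for each line and treatment. The 10 lines were the parental cells (PAR), an AXL knockout made from them by CRISPR editing at the AXL kinase domain (KO), and 8 populations of KO cells transduced with lentivirus and sorted for GFP, each with its own version of the receptor: unchanged (WT), without kinase activity (KD), or with phenylalanine in place of a single tyrosine (Y634F, Y643F, Y698F, Y726F, Y750F, Y821F). Each line was left untreated or treated for 24 h with erlotinib, an EGFR kinase inhibitor (E), and every line but KO also with erlotinib plus AF154, an antibody that activates AXL (EA); KO with EA was not analysed here. Dishes were seeded with 300000 cells. The transduced lines are mixed populations in which only some of the cells express AXL and the remainder are AXL KO cells, so a value in such a line averages over both. The lines served as replicates, and the p-values below measure the spread between lines, which differ in AXL, and not between repeated cultures of a line.

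Cells make cholesterol from acetyl-CoA through mevalonate, squalene and lanosterol, and make fatty acids from acetyl-CoA through malonyl-CoA. Both routes are under the control of the SREBP transcription factors. When membrane sterols are low, the escort protein SCAP carries SREBP from the endoplasmic reticulum to the Golgi, where proteases release the active factor; when sterols are high, the INSIG proteins hold SCAP and SREBP back. SREBP-2, from SREBF2, mainly drives the cholesterol genes, and SREBP-1, from SREBF1, mainly drives the fatty acid genes. Growth factor signalling through AKT and mTOR is known to raise SREBP activity, and lung adenocarcinoma cells often express these enzymes at high levels.

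Values are TPM (a transcript's share of its library, corrected for transcript length and scaled to the same total in each library), summed over the transcripts of a gene. Differences are on the log2(TPM + 1) scale, which understates the change of low genes, and an adjusted p below 0.05 over the 9085 genes that averaged 10 TPM or more counted as a call. Of the 34 members, 32 reached that mean. STARD4, a sterol carrier, and ABCA1, which exports cholesterol, stayed below it and were not tested.

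Facts about all libraries bear on these values. Between 97.0 and 97.3% of each library's TPM could be assigned to a gene, and TPM keeps no sequencing depth. The share of mitochondrial genes ran from 11.4 to 17.4%, and 3 libraries stood at its top, PAR with E (17.4%), Y821F with EA (17.4%) and PAR with EA (16.4%). AXL transcripts were at 79.3 to 92.4 TPM in KO, 232 to 351 TPM in PAR and 217 to 852 TPM in the transduced lines; reads outside the edited site do not check the edit. The marker sums moved with treatment. The 6 epithelial genes summed to 8160 to 9240 TPM untreated, 10200 to 11200 TPM with E and 9950 to 10800 TPM with EA. The 5 leukocyte genes, with CD3E at 0 in every library and nearly all of the sum from CD68, had ranges of 34.5 to 68.9 TPM untreated (median 58.1), 28.7 to 45.9 TPM with E (median 34.4) and 32.0 to 52.0 TPM with EA. The 7 fibroblast and endothelial genes, mostly COL1A1 (1.03 in E against untreated), summed to 23.4 to 43.2 TPM untreated (median 33.1), 40.4 to 67.5 TPM with E (median 59.5) and 37.8 to 76.9 TPM with EA. A list of 12 proliferation genes fell in E against untreated, with 12 of 12 called lower and a median change of -1.51, and its summed level dropped from 1720 to 1910 TPM in untreated libraries to 471 to 704 TPM with E and 570 to 851 TPM with EA. The part of these shifts in the results below was not tested.

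The comparison of E with untreated cells asked how the pathway's transcripts stood after EGFR inhibition in all 10 lines. The fatty acid branch fell, with 6 of 7 genes called lower. The sterol branch split, with 5 genes called higher and 5 lower among 11, and the regulators moved in opposite directions, SREBF1 falling and SREBF2 rising. The extremes were LRP8, a lipoprotein receptor that fell by 2.59, and TM7SF2, a sterol reductase that rose by 1.71. In the limma fit with cell line as a term, 28 of 32 tested members were called, 10 higher and 18 lower. Across all genes tested, 79.0% were called, 36.4% higher and 42.6% lower, so the share of members called was close to that of other genes. The members' median change was -0.20, beside -0.04 for all genes tested. By line, Y821F was lowest, with 5 of 32 members higher, a median of -0.49 (all genes -0.01) and 2 of 11 sterol genes higher. The other 9 lines had 9 to 15 members and 4 to 7 sterol genes higher. Of all genes tested, 49.2% were higher in Y821F and between 39.0% (PAR) and 51.3% (Y643F) in the other lines. Without Y821F 28 members were again called. The untreated and E ranges of the 10 lines did not overlap for 8 members, 2 higher and 6 lower, while 36.5% of all genes tested had separate ranges, 14.9% higher and 21.6% lower.

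**Figure D1:**
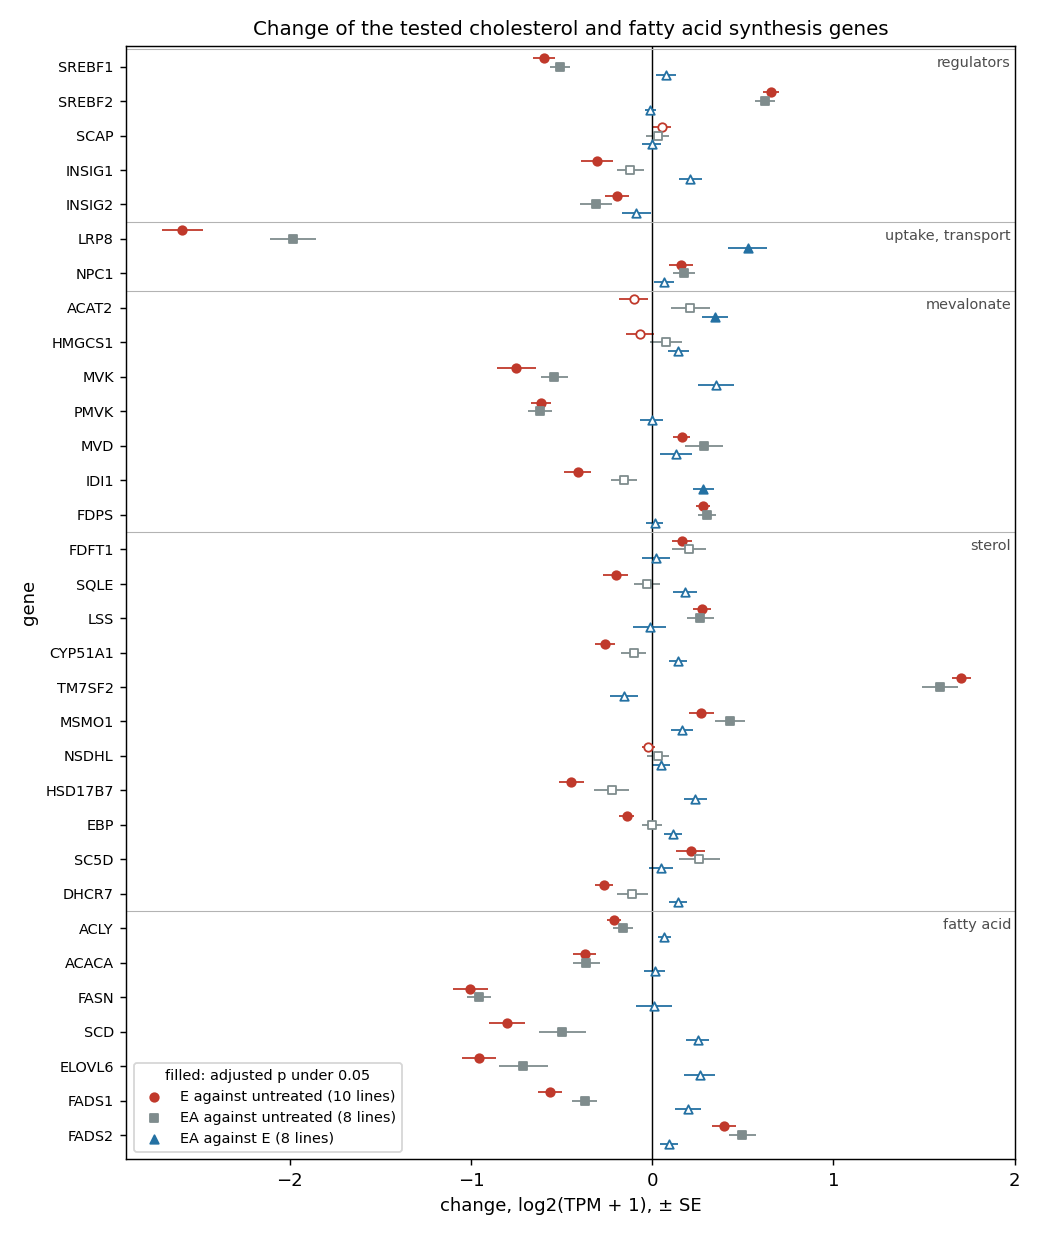
Change of the 32 tested genes on the log2(TPM + 1) scale (x axis, mean difference ± SE from the limma fit), with genes grouped by role on the y axis. Circles show E against untreated (10 lines), squares EA against untreated (8 lines) and triangles EA against E (8 lines), filled where the adjusted p was below 0.05; LRP8 stands at -2.59 and TM7SF2 at 1.71 in E against untreated, and 3 triangles are filled.

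Among the regulators, SREBF1 had a median of 62.1 TPM over the untreated lines, from 58.2 in Y643F to 80.3 in PAR. With E its median was 43.4 TPM, from 34.5 in KO to 52.5 in Y726F. All 10 lines were lower with E and the ranges did not overlap, a change of -0.59 (SE 0.06, limma adjusted p = 3.79e-07). SREBF1 shares 6.92% of its exonic bases with RAI1 on the opposite strand, and the strand setting of the libraries is not given in the sources used here.

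SREBF2 went the other way. It ran from 61.5 TPM in KD to 99.5 TPM in PAR in untreated cells, with a median of 72.3 TPM, and from 103 TPM in KO to 131 TPM in PAR with E, with a median of 117 TPM. The ranges were again separate, all 10 lines were higher, and the change was 0.65 (SE 0.04, limma adjusted p = 4.14e-09). PAR had both the highest level and the smallest rise, 0.39. INSIG1, itself known as an SREBP target, fell by 0.30 (SE 0.09, limma adjusted p = 0.00513), with 8 of 10 lines lower and overlapping ranges of 19.2 to 43.1 TPM untreated and 18.1 to 29.6 TPM with E. INSIG2 fell by 0.19 (SE 0.07, limma adjusted p = 0.0158) in 8 of 10 lines. SCAP stayed between 38.2 and 55.8 TPM in all libraries and was not called (0.05, SE 0.05, limma adjusted p = 0.338).

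The promoters of SREBF2 and TM7SF2, the members that rose with separate ranges, are shown for the sequence motifs they hold. The sequences are the 250 bases before the RefSeq start site, in GRCh38.p14 and 5′ to 3′ on the gene's strand, SREBF2 at chr22:41832855-41833104 (plus strand) and TM7SF2 at chr11:65111622-65111871 (plus strand). Capitals mark a sterol regulatory element, searched as TCACNCCAC, and CCAAT boxes, searched as CCAAT, on either strand.
SREBF2: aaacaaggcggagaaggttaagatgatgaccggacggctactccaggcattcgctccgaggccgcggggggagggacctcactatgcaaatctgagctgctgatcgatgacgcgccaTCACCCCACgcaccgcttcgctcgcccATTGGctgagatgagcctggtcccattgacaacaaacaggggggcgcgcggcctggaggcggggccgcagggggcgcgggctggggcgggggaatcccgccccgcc
TM7SF2: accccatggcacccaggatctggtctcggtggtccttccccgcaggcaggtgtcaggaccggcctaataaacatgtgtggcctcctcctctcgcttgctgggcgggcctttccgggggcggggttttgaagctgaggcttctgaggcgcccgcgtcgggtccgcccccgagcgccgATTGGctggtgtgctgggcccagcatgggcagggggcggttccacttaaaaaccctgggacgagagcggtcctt
Of the 34 members, 30 had a RefSeq promoter in the table used; those of ACAT2, FDFT1, SQLE and FASN were not found there. SREBF2 was the only 1 of the 30 with a TCACNCCAC match, which 0.857% of the 7355 promoters matched to tested genes and 0.883% of all 35116 promoters held. CCAAT stood in 17 of the 30, against 35.2% of the promoters of tested genes and 32.0% of all. The CACGTG box was in 4 (SCAP, INSIG1, ABCA1 and SC5D), against 9.26% of tested genes' promoters, and the GGGCGG box in 28, against 70.2%. A match says only that the letters are there.

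Of the genes for uptake and transport, LRP8 changed most of all 32 members. LRP8, at chr1:53242364-53328070 (minus strand, GRCh38, GENCODE 29), encodes a receptor of the LDL receptor family that also binds reelin. Its 10 untreated libraries ran from 30.2 TPM in Y634F to 43.2 TPM in Y726F, with a median of 37.1 TPM. With E they ran from 3.57 TPM in KO to 8.67 TPM in Y698F, with a median of 5 TPM. No line overlapped, and the fitted TPM + 1 with E was 0.166 of the untreated value (-2.59, SE 0.12, limma adjusted p = 3.47e-11). Its mean over the 29 libraries, 17.1 TPM, reached the filter of 10 TPM through the untreated libraries. Of its transcripts, LRP8-201 was at a median of 5.51 TPM untreated and 1.31 TPM with E, and LRP8-208 at 8.18 and 1.46 TPM. NPC1, which releases cholesterol from lysosomes, was called higher by 0.16 (SE 0.07, limma adjusted p = 0.041) in 7 of 10 lines, and leaving out any of 7 lines (all but PAR, WT and Y821F) ended that call, with the adjusted p then between 0.0509 and 0.106. The untested ABCA1 had medians of 3.28 TPM untreated, 3.25 TPM with E and 3.64 TPM with EA, and STARD4 of 2.95, 2.80 and 3.18 TPM.

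In the mevalonate steps, 3 of 7 genes were called lower, 2 higher and 2 were not called. The mevalonate kinase MVK and the phosphomevalonate kinase PMVK, which act in succession, both fell in 10 of 10 lines. PMVK had a median of 40.2 TPM untreated (35.3 to 49.1) and 27.4 TPM with E (23.8 to 28.9), with separate ranges, a change of -0.61 (SE 0.05, limma adjusted p = 7.75e-08). MVK went from a median of 26.6 TPM (17.3 in KD to 33.4 in PAR) to 14.8 TPM (11.1 in Y726F to 22.5 in KO), a change of -0.75 (SE 0.11, limma adjusted p = 1.44e-05) with overlapping ranges. The next enzymes, MVD and FDPS, were called higher by 0.16 and 0.28, FDPS in 10 of 10 lines from a median of 202 TPM (184 to 223) to 247 TPM (194 to 282), while IDI1, the isomerase between them, fell by 0.41 (SE 0.07, limma adjusted p = 0.000122) in 10 of 10 lines. HMGCS1, the HMG-CoA synthase at the entry of the pathway, was not called. Its medians were 72.1 TPM untreated and 73.5 TPM with E, 6 of 10 lines were higher, and the fitted change of -0.07 (SE 0.08, limma adjusted p = 0.419) turned to 0.02 with quantile normalization. ACAT2, the cytosolic thiolase, was not called either (-0.10, SE 0.08, limma adjusted p = 0.244).

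In the sterol steps after farnesyl diphosphate, TM7SF2 stood apart. It encodes a sterol reductase that works just after CYP51A1 and lies at chr11:65111845-65116384 (plus strand, GRCh38, GENCODE 29). The 10 untreated libraries held between 9.14 TPM in PAR and 11.9 TPM in Y643F, with a median of 10.5 TPM. With E the range was 32.2 TPM in KD to 45.4 TPM in Y698F and the median 36.7 TPM. Every line rose and the fitted level was 3.26-fold higher (1.71, SE 0.05, limma adjusted p = 8.23e-13). The protein-coding transcript TM7SF2-201 carried most of it, going from a median of 4.74 TPM, 45.0% of the gene, to 23.3 TPM, 65.1% of the gene.

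The other sterol enzymes changed by less than 0.5 in either direction. FDFT1 (squalene synthase), LSS (lanosterol synthase), MSMO1 (a methylsterol oxidase) and SC5D (a sterol desaturase) were called higher, by 0.16, 0.28, 0.27 and 0.21. SC5D averaged 9.46 TPM untreated, 11.2 TPM with E and 11.6 TPM with EA. It reached the filter of 10 TPM, with a mean of 10.73 TPM, only through the treated libraries, the side called higher. SQLE (squalene epoxidase), CYP51A1 (lanosterol demethylase), HSD17B7 (a ketosteroid reductase), EBP (a sterol isomerase) and DHCR7 (the reductase that yields cholesterol) were called lower, at -0.20, -0.26, -0.45, -0.14 and -0.27. LSS ran from 18.5 to 36.3 TPM untreated (median 28.3) and from 23.2 to 47.8 TPM with E (median 31.7), lowest in KO and highest in PAR in both groups. LSS and FDFT1 were higher in 10 and 9 of 10 lines, and HSD17B7 and DHCR7 were lower in 10 of 10. HSD17B7 was the sterol gene that fell with separate ranges, 18.2 to 28.1 TPM untreated and 15.2 to 18.1 TPM with E, although Y643F, at the inner end of both, hardly moved (-0.0070). NSDHL was not called (-0.02, SE 0.03, limma adjusted p = 0.593). SQLE, which holds a rate-limiting place after squalene, had medians of 41.0 TPM untreated and 38.0 TPM with E with widely overlapping ranges, and its call (limma adjusted p = 0.0166) was lost with quantile normalization, without the filter on low values and without the line term, with adjusted p of 0.0588, 0.0561 and 0.0917. The calls of EBP and SC5D were also lost with quantile normalization, with adjusted p of 0.364 and 0.181. HSD17B7 and FDPS have pseudogene copies, between which reads could have been split.

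Fatty acid synthesis fell more evenly. ACLY, which makes cytosolic acetyl-CoA from citrate, fell by 0.21 (SE 0.04, limma adjusted p = 0.000136), and ACACA, which makes malonyl-CoA, fell by 0.37 (SE 0.06, limma adjusted p = 7.30e-05), from 19.4 to 27.3 TPM untreated to 15.2 to 20.5 TPM with E. FASN builds palmitate from malonyl-CoA. The untreated lines ran from 158 TPM in WT to 243 TPM in PAR with a median of 196 TPM, and the E libraries from 72.9 TPM in PAR to 135 TPM in Y643F with a median of 95.3 TPM. The ranges did not overlap and the fitted TPM + 1 with E was 0.499 of the untreated value (-1.003, SE 0.10, limma adjusted p = 1.84e-07). PAR, highest untreated and lowest with E, fell by 1.72, and Y643F fell by 0.30.

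SCD and ELOVL6, which desaturate and lengthen the new fatty acid, fell in all 10 lines. SCD was the tested member with the widest spread between untreated lines, 3.37-fold, from 22.6 TPM in Y643F to 75.9 TPM in Y821F, with a median of 49.4 TPM. With E it ran from 13.7 TPM in KO to 44.3 TPM in PAR with a median of 30.0 TPM, so the groups overlapped although each line fell, and the change was -0.80 (SE 0.10, limma adjusted p = 3.52e-06). ELOVL6 fell from a median of 39.1 TPM to 19.7 TPM, a change of -0.95 (SE 0.09, limma adjusted p = 2.13e-07), with PAR lowest in both groups, at 20.6 and 12.9 TPM. These values sum coding and noncoding transcripts. The coding ELOVL6-201 was at 12.0 TPM in untreated PAR, against 12.6 to 16.7 TPM in the lines derived from it. With E it was at 7.06 TPM in PAR, inside their range of 5.24 to 7.27 TPM.

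FADS1 and FADS2, neighbouring desaturases of polyunsaturated fatty acids, moved apart. FADS1 had a median of 56.4 TPM untreated (50.0 in KD to 72.9 in Y821F) and 41.1 TPM with E (26.1 in PAR to 49.2 in Y634F). The ranges were separate and the change was -0.56 (SE 0.07, limma adjusted p = 1.74e-06). FADS2 rose from a median of 58.0 TPM (45.6 in Y643F to 77.7 in Y726F) to 78.1 TPM (55.4 in KO to 95.5 in Y698F), higher in 9 of 10 lines with overlapping ranges, a change of 0.39 (SE 0.07, limma adjusted p = 6.35e-05). FADS2 was the only 1 of the 7 fatty acid genes called higher, and all 10 lines fell in FADS1.

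The RefSeq start sites of the pair lie 800 bases apart on chromosome 11 and face each other, so that each gene is read through the start of the other; their upstream windows, on the outer sides, are shown together. FADS1 is at chr11:61817004-61817253 (minus strand) and FADS2 at chr11:61815953-61816202 (plus strand) in GRCh38.p14, each as 250 bases 5′ to 3′ on its own strand, inside the longer GENCODE spans of both genes; none is in capitals because neither holds TCACNCCAC, CACGTG or CCAAT.
FADS1: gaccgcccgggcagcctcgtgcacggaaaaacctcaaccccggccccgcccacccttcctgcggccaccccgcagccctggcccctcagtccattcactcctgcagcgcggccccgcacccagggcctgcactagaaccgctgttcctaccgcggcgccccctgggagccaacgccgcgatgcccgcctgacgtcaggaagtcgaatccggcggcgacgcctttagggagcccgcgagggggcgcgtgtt
FADS2: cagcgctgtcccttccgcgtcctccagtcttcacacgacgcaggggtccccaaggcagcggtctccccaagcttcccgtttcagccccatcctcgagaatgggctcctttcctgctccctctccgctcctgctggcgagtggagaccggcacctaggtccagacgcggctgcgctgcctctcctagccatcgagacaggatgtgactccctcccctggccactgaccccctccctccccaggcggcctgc
Their exons share 490 bases on opposite strands, 4.79% of FADS1 and 4.44% of FADS2. Within FADS2, the transcript FADS2-201 went from a median of 23.4 to 41.2 TPM and FADS2-202 from 14.4 to 19.6 TPM; FADS1-201 went from 42.2 to 28.3 TPM.

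**Figure D2:**
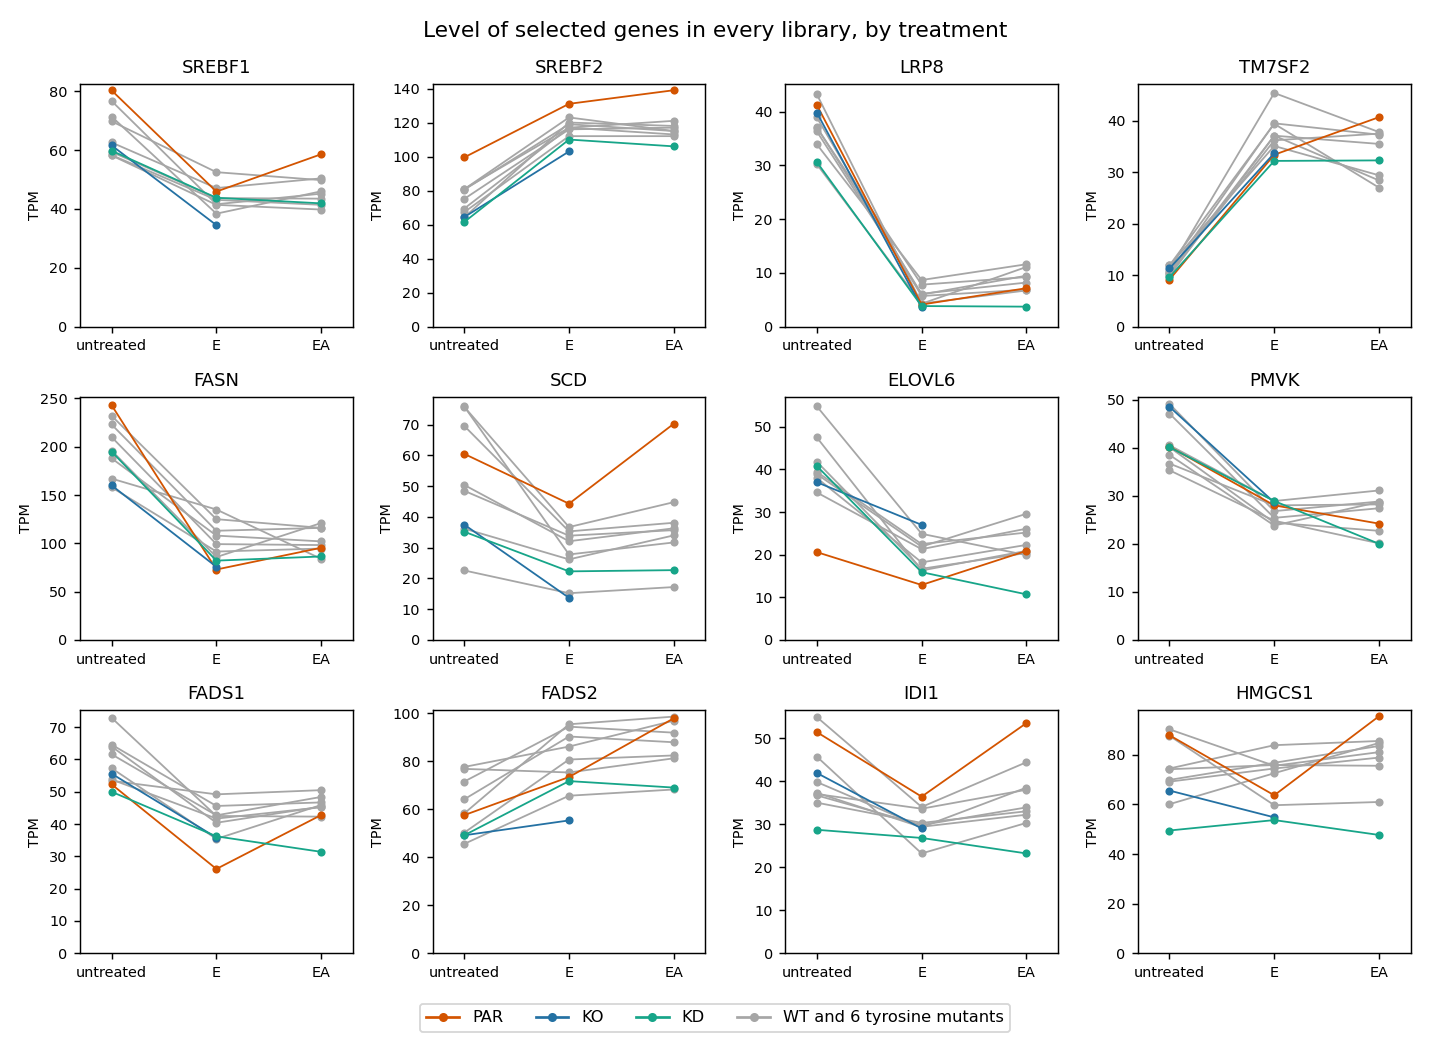
TPM (y axis, from 0) of 12 members in every library, by treatment (x axis), with a line joining the libraries of each cell line: PAR orange, KO blue, KD green, WT and the 6 tyrosine mutants grey. LRP8, FASN, PMVK, FADS1 and SREBF1 fall and SREBF2 and TM7SF2 rise with separate ranges from untreated to E, and in IDI1 and HMGCS1 the PAR line turns up from E to EA while the KD line does not.

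Other lipid genes were counted over 5 further lists in E against untreated. Over all genes tested 79.0% were called there, 36.4% higher and 42.6% lower. Of 12 tested genes that process or degrade SREBP and its partners, 3 were called higher and 5 lower, with the protease MBTPS1 at 0.51 and the ubiquitin enzyme UBE2G2 at -0.53. Of 15 tested genes for fatty acid elongation and activation, 5 were called higher and 8 lower, led by the thioesterase ACOT7 (-1.77), the dehydratase HACD3 (-0.67) and its relative HACD2 (0.87). Of 10 tested sterol handling genes, 3 were called higher and 5 lower, with TMEM97, a binding partner of NPC1, at -1.56, GRAMD1A, which moves sterol from the plasma membrane, at 0.80 and the sterol esterifying enzyme SOAT1 at -0.56. Glycerolipid genes gave 2 higher and 2 lower among 8, with the triglyceride lipase PNPLA2 2.78-fold higher in TPM + 1 (1.47), LPIN1 at -0.74 and AGPAT3 at -0.36. Fatty acid oxidation genes gave 4 higher and 3 lower among 12, and the leading ones rose, DECR1 by 0.95, HADHB by 0.52 and ACADVL by 0.39. The median changes of these lists lay between -0.16 and 0.05, beside -0.04 for all genes.

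The comparison of EA with E asked what AXL activation added under erlotinib in the 8 lines with catalytically competent AXL (PAR, WT and the tyrosine mutants). Transcripts of the pathway were mostly higher, by little. Of 32 tested members, 26 had a positive change, 3 were called higher (LRP8, ACAT2 and IDI1) and none lower, and the median change was 0.10 beside 0.02 for all genes tested. Across all genes, 2.36% were called, 1.88% higher and 0.473% lower. No member had separate ranges, as 0.264% of all genes did, 0.253% higher and 0.0110% lower. The E libraries are the same as in the comparison above, so the values of both are set side by side and not correlated.

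LRP8 was higher with EA in 8 of 8 lines, at 4.11 and 7.15 TPM (E and EA) in PAR, 6.12 and 8.20 in WT, 4.26 and 11.1 in Y634F, 7.81 and 9.22 in Y643F, 8.67 and 11.6 in Y698F, 4.30 and 6.73 in Y726F, 5.97 and 9.48 in Y750F and 5.70 and 6.88 in Y821F. The change was 0.53 (SE 0.11, limma adjusted p = 0.0367), small beside its drop of 2.59 with E. In these 8 lines LRP8 averaged 5.87 TPM with E and 8.80 TPM with EA, both below the filter of 10 TPM. It was tested here only because its untreated libraries raised its mean. IDI1 was higher in 8 of 8 lines by 0.28 (SE 0.06, limma adjusted p = 0.0332), from 0.12 in Y750F to 0.54 in PAR. ACAT2 was higher in 8 of 8 lines by 0.35 (SE 0.07, limma adjusted p = 0.0371), from 0.02 in Y750F to 0.73 in PAR. ACAT2 shares 9.23% of its exonic bases with TCP1 on the opposite strand, a gene at a mean of 178 TPM. It also shares 26.5% with SOD2, at a mean of 0.0591 TPM over the transcripts matched to that gene, and 33.9% with SOD2-OT1. The 18956 transcripts that matched no gene are not in these means. IDI1 shares 14.8% with IDI2-AS1. All are on opposite strands, and SOD2-OT1 and IDI2-AS1 have no value here.

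These calls were fragile. Without the line term none of the 32 members was called, and none was called on leaving out PAR, Y634F, Y643F or Y698F, or on testing every gene that averaged 1 TPM or more. With PAR and Y821F both left out, the lines of the 3 libraries with the highest mitochondrial share (chosen after seeing the data), none of the 9085 genes was called by limma; LRP8 was then at 0.55, ACAT2 at 0.25 and IDI1 at 0.23. From protein_coding transcripts only, 5 members were called, LRP8, IDI1, MVK, SCD and ELOVL6. Of the 12 proliferation genes, 9 were called higher in the same comparison, with a median of 0.33; their part in the members' values was not tested. Of the other lipid lists only ME1, a malic enzyme that yields NADPH, was called in this comparison (0.16, limma adjusted p = 0.0476).

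Among members that were not called, SCD (0.25, limma adjusted p = 0.058) and DHCR7 (0.14, limma adjusted p = 0.135) were higher in 8 of 8 lines. INSIG1 (0.21, limma adjusted p = 0.101), HSD17B7 (0.24, limma adjusted p = 0.0716), MVK (0.35, limma adjusted p = 0.0816), ELOVL6 (0.26, limma adjusted p = 0.113), HMGCS1 (0.14, limma adjusted p = 0.191) and FADS1 (0.20, limma adjusted p = 0.145) were higher in 7 of 8. SQLE was at 0.18 (limma adjusted p = 0.158). FASN and ACACA stood at 0.01 each and SREBF2 and SCAP at -0.0094 and -0.0018, all with line values on either side of 0 and signs that turned in some settings. SREBF1 was at 0.08 (limma adjusted p = 0.436) and INSIG2 at -0.09 (limma adjusted p = 0.578). TM7SF2 was lower in 6 of 8 lines (-0.15, limma adjusted p = 0.28).

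The lines differed in how the members went from E to EA. In PAR, 30 of 32 members were higher with a median of 0.40, beside 0.05 for all genes in that line, of which 58.5% were higher, and 11 of 11 sterol genes were higher with a median of 0.41. The medians over the 32 members were 0.17 in Y698F, 0.10 in WT, 0.10 in Y634F, 0.08 in Y750F, 0.06 in Y726F, 0.03 in Y821F and 0.03 in Y643F. KD, whose AXL lacks kinase activity, was kept out of the test. There 10 of 32 members were higher and 22 lower, with a median of -0.02 beside 0.0025 for all genes, of which 50.7% were higher. For 10 members the KD change lay below all 8 competent lines (INSIG1, LRP8, HMGCS1, PMVK, IDI1, DHCR7, SCD, ELOVL6, FADS1 and FADS2), for 22 inside their range and for none above it, while of all 9085 genes tested 1001 (11%) lay below and 727 above. IDI1 in KD went from 26.8 to 23.2 TPM, HMGCS1 from 53.7 to 47.7 TPM and LRP8 from 3.83 to 3.72 TPM. Summed ELOVL6 in KD went from 15.9 to 10.7 TPM. Its coding transcript ELOVL6-201 ran from 5.24 to 7.27 TPM with E in the derived lines, KD among them, and from 6.62 to 8.47 TPM with EA. KD is a single line with 1 library per treatment, so its difference from the others has no replicate of its own and was not tested. Among the 9 EA libraries PAR was highest for 20 of 32 members and KD lowest for 19, while PAR was highest for 20.9% and KD lowest for 16.5% of all genes tested. Part of that order was there without AF154. Among the 10 untreated libraries PAR was highest for 10 members (29.3% of all genes) and KD lowest for 11 (9.96%), and with E, KO was lowest for 13 (8.97%) and KD for 3 (9.74%).

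**Figure D3:**
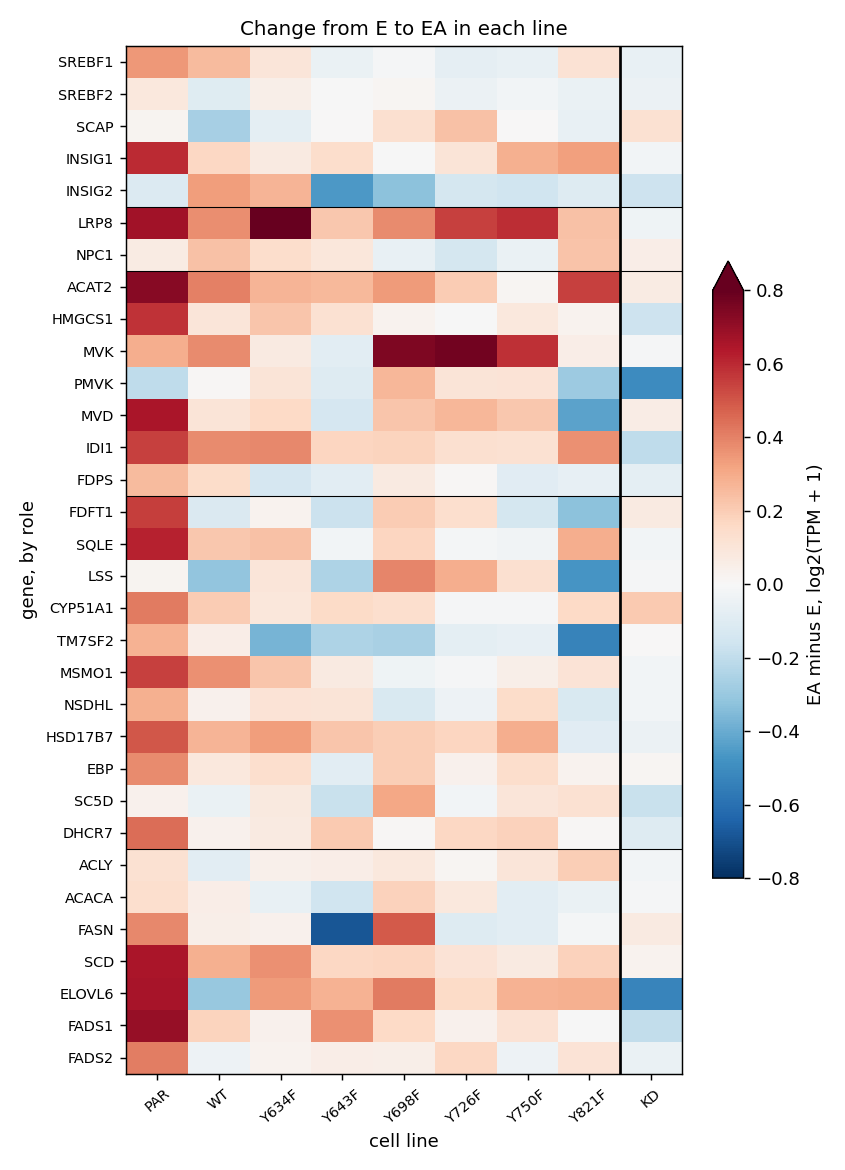
EA minus E on the log2(TPM + 1) scale (colour, red higher and blue lower with EA) for the 32 tested members (rows, by role) in each of 9 lines (columns), with KD right of the black line. The PAR column is red in 30 of 32 rows with a median of 0.40, and KD is higher in 10 of 32; LRP8 in Y634F, at 1.21, lies beyond the end of the colour scale.

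Against untreated cells, the same 8 lines with EA had lower fatty acid synthesis transcripts, with 6 of 7 genes called lower, while in the sterol steps 3 genes were called higher and none of 11 lower. In all, 19 of 32 members were called, 8 higher and 11 lower, with 70.6% of all genes called, 33.1% higher and 37.6% lower. The median of the members was -0.06 beside -0.03 for all genes. All 7 fatty acid genes were called, FASN at -0.96 (SE 0.07, limma adjusted p = 7.55e-08), ELOVL6 at -0.71, SCD at -0.50, FADS1 at -0.37, ACACA at -0.36 and ACLY at -0.16, with FADS2 at 0.50. The 3 sterol genes were TM7SF2 at 1.59, MSMO1 at 0.43 and LSS at 0.27. Other calls were SREBF2 (0.62), FDPS (0.30), MVD (0.29) and NPC1 (0.18) higher, and LRP8 (-1.98), PMVK (-0.62), MVK (-0.54), SREBF1 (-0.51) and INSIG2 (-0.31) lower. INSIG1 (-0.12), IDI1 (-0.15), SQLE (-0.03), HMGCS1 (0.08) and SCAP (0.03) were not called. Ranges were separate for 6 members (SREBF2 and TM7SF2 higher, LRP8, PMVK, FASN and FADS1 lower), as for 32.1% of all genes, 12.9% higher and 19.2% lower. The untreated libraries are shared with the comparison of E with untreated cells, and whether EA and E differed is answered only by the direct comparison above.

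PAR was set against the 9 lines derived from it, each line taken as the mean of its untreated and E values. PAR is a single line, so the fit takes its spread from the derived lines. Of 32 members, 2 were called higher in PAR and 2 lower, beside 12.1% of all genes higher, 18.1% lower and 30.2% in either direction. SREBF2 was higher by 0.33 (SE 0.10, limma adjusted p = 0.0242) and SC5D by 0.50 (SE 0.14, limma adjusted p = 0.0163), both above all 9 derived lines. ELOVL6 was lower (-0.78, SE 0.15, limma adjusted p = 0.00162), as was FADS1 (-0.40, SE 0.12, limma adjusted p = 0.0253), both below all 9. The ELOVL6 difference lay in the noncoding transcript ELOVL6-207, at 2.13 TPM in untreated PAR and 15.7 to 32.9 TPM in the untreated derived lines, whereas the coding ELOVL6-201 was at 12.0 TPM in PAR and 12.6 to 16.7 TPM in the derived lines. With E, ELOVL6-207 was at 4.84 TPM in PAR against 7.89 to 19.5 TPM, and ELOVL6-201 at 7.06 TPM inside the derived range of 5.24 to 7.27 TPM. Leaving out KO raised the members called from 4 to 7, adding ACAT2, MVK and LSS. From protein_coding transcripts only the ELOVL6 difference was -0.06 and not called (limma adjusted p = 0.742). FADS1 and SC5D were called from the E libraries and not from the untreated ones, and SREBF2 and ELOVL6 from the untreated ones and not from E.

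**Figure D4:**
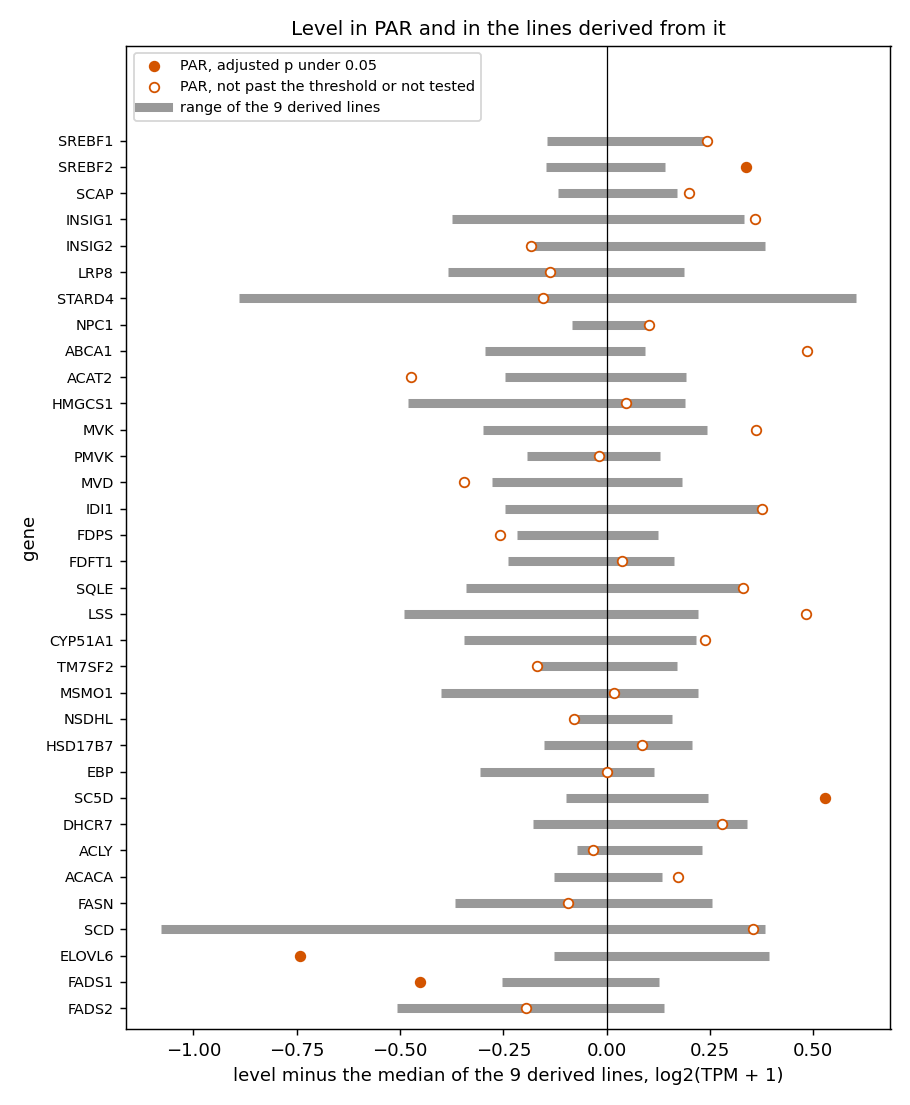
Level of 34 members in PAR (orange points, mean of untreated and E on the log2(TPM + 1) scale) relative to the median of the 9 derived lines, whose range is the grey bar; the x axis is the difference from that median. Filled points had an adjusted p below 0.05: SREBF2 and SC5D lie right of the bar and ELOVL6 and FADS1 left of it.

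The response to E, taken as E minus untreated within each line, was called for none of the 32 members in PAR against the 9 derived lines by limma, where 5.50% of all genes were called, 0.484% higher and 5.02% lower. The members' median difference was -0.15, and 9 of 32 were positive. PAR being 1 line, single members are given with the size of the difference and no p-value. Among the largest differences, the response was lower in PAR for FASN (-0.80, SE 0.26), LRP8 (-0.50), FADS1 (-0.46), HMGCS1 (-0.43), INSIG1 (-0.39) and SCAP (-0.38). It was higher for ACAT2 (0.45) and SCD (0.40). FDPS was at -0.27. FASN alone was called on leaving out Y643F. All genes shifted in this comparison, with a median of -0.12 that became 0.07 when libraries were centred on their median, and the E library of PAR is among the 3 with the highest mitochondrial share.

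KO and KD, the lines without AXL kinase activity, were set against the 8 competent lines in the same way. No member was called, and neither was any of the 9085 genes (0% in limma, with 275 genes at an unadjusted p below 0.05). At that unadjusted level there was 1 member, MVK, which fell less in KO and KD (difference 0.71, SE 0.19, limma adjusted p = 0.998). MVK went from 24.1 to 22.5 TPM in KO and from 17.3 to 14.2 TPM in KD, while the competent lines ended between 11.1 and 19.2 TPM with E. For the members that changed most with E, the difference in response was -0.43 (SE 0.30) for LRP8, -0.17 (SE 0.13) for TM7SF2 and -0.19 (SE 0.26) for FASN. With 2 lines against 8 these errors are as large as many of the members' changes, and a missed threshold does not show that the responses were alike.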

How the data were processed

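Poly(A) RNA from 29 PC9 libraries was sequenced on an Illumina NovaSeq. Per the labels and the submitters' processing notes, the authors quantified transcripts with kallisto against GRCh38 and deposited TPM per transcript; the version, annotation and strand setting are not given in the sources used here, and TPM keeps no depth. Of 188753 transcripts, 169797 matched GENCODE 29 by identifier and were summed into 35579 genes. The members and all lists were chosen with earlier results of these data known. The 9085 genes averaging 10 TPM or more were tested on log2(TPM + 1) with limma 3.58.1 in R 4.3.3 (trended eBayes, Benjamini-Hochberg adjustment, threshold 0.05), tested first on simulated data. Treatment comparisons kept the cell line as a block, because libraries of a line share their cells; each line has 1 library per treatment. KD was left out of both EA comparisons and KO has no EA library here. All members are accounted for by role; given with values are the regulators, HMGCS1, SQLE, FASN, SCD, ACACA, LRP8, ABCA1 and, per comparison, the 5 largest rises and falls among called members, and of other lipid lists up to 3 genes each by adjusted p with E, plus any called in EA against E. Lists for SREBP processing, fatty acid elongation and activation, glycerolipid, sterol handling, fatty acid oxidation, proliferation and cell type markers were counted or summed, beside the single genes named from them. Alternatives were another pseudocount (0.1), filter, centring, quantile normalization, protein_coding transcripts, no line term, KD included, untreated or E libraries alone (PAR level) and each line left out. Promoters are RefSeq sequences. Tables were made in Python 3.11.15 with pandas 2.3.3, numpy 2.4.6 and scipy 1.17.1, and figures with matplotlib 3.10.9.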

Additional observations from a re-analysis of the deposited data

Results flagged for a closer look

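Among 96 sets of line values (32 members in 3 comparisons), 6 held a line far from the others by Dixon's criterion, which chance alone meets in about 1 of 20 sets. Of these, 4 were in PAR. In EA against E, the change of HMGCS1 in PAR was 0.58 while the other lines lay between -0.0058 and 0.22, that of DHCR7 in PAR was 0.45 with the others between 0.0064 and 0.21, and that of FADS2 in PAR was 0.41 with the others between -0.039 and 0.17. LRP8 in Y634F changed by 1.21 in the same comparison, the others by 0.21 to 0.67. In EA against untreated, ACAT2 in PAR was at 1.03 with the others between -0.026 and 0.44, and FDFT1 in Y821F was at -0.51 with the others between 0.20 and 0.57. The mitochondrial share was 17.4% in PAR with E, 16.4% in PAR with EA and 17.4% in Y821F with EA, the highest of the 29 libraries, and its part in these values was not tested.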

How the results depend on the processing

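Of 1218 recomputed gene values, 1112 kept direction and side of the threshold, 81 lost the call, 3 gained one and 22 changed sign. In E against untreated 24 to 28 members were called in every setting, 24 without the line block, and in EA against untreated 17 to 23. In EA against E the 3 calls became 0 with a mean of at least 1 TPM, with no filter, without the line block (pairing by cell line) and without PAR and Y821F (chosen after seeing the data), 1 with KD included and 5 with protein_coding transcripts only; leaving out 1 line gave 0 to 2. For the level of PAR, E libraries alone gave 2 calls and leaving out 1 line 4 to 7; for its response, leaving out 1 line gave 0 to 1. Signs changed only near 0. In E against untreated HMGCS1 went to 0.0211 with quantile normalization and 0.0391 without PAR and Y821F. In EA against E, FASN went to -0.00705 with centring, -0.0739 with protein_coding transcripts and -0.0496 without PAR and Y821F, ACACA to -0.00253 with centring and -0.00842 with quantile normalization, and SCAP to 0.0117 with KD and 0.00358 without PAR and Y821F. Leaving out 1 line there gave -0.0602 to 0.108 for FASN, -0.0108 to 0.0378 for ACACA, -0.0353 to 0.0362 for SCAP and -0.0224 to 0.00311 for SREBF2. In EA against untreated, SQLE went to 0.0054 with centring and 0.0207 with quantile normalization; leaving out 1 line gave -0.0604 to 0.0108 for SQLE and -0.00722 to 0.0723 for SCAP. The cause was not tested. Depth is unknown, so counting error could not be given.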
